A study of Mus musculus with 2 samples.

Results

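The aminergic and muscarinic receptors are the proteins through which serotonin, noradrenaline, adrenaline, dopamine, histamine and acetylcholine act on cells, here without the nicotinic channels. They were taken as every protein-coding gene whose GENCODE symbol begins with Htr plus a digit, Adra, Adrb plus a digit, Drd plus a digit, Chrm or Hrh, with the Adrbk kinases left out. The rule gave 37 genes, all of them measured, among 43346 annotated genes, of which 21474 are protein-coding. The families hold 14 serotonin, 6 alpha adrenergic, 3 beta adrenergic, 5 dopamine, 5 muscarinic and 4 histamine receptor genes. No measured value entered the rule.

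Their mRNA was measured in adult cerebellum of the mouse strain C57BL/6J at an age of 8 weeks, in 2 libraries of polyadenylated RNA that form 1 group, with no treatment, mutation or other tissue to compare. The submitters numbered them as biological replicates 1 and 2 and labelled both as tissue pooled from male and female littermates. Both share a donor record, so the labels do not say whether they came from separate animals. The sex-linked counts given below show that they were not made from the same tissue pool. The spread between them thus holds differences between animals, sex among them, and may be partly technical. With 1 group of 2 libraries no test of a condition exists, and no p-value is given for any receptor.

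The libraries held 83109117 and 84279927 expected counts, which are estimated fragment numbers, and TPM, the level per transcript length scaled to a fixed total, is the unit used to set genes beside each other. The replicates differed beyond counting noise, with a chi-square of 19.8 per degree of freedom over genes. The sex labels and the data disagreed: Xist, the transcript of the inactive X chromosome, had 45928 counts in replicate 1 and 26 in replicate 2, while 4 genes of the Y chromosome had 0 counts in replicate 1 and 1328 to 3776 in replicate 2. All receptor values below are therefore given for each library by itself. The defining genes of cerebellar neurons were abundant, with Gabra6 of granule neurons at 336.11 and 269.46 TPM and Pcp2 of Purkinje neurons at 1584.66 and 1349.15 TPM. In bulk tissue, fewer cells of a type and less RNA per cell cannot be told apart.

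Nearly all of these receptors sit in the cell membrane and pass the signal to a G protein: the Gs class raises cyclic AMP through adenylyl cyclase, the Gi/o class lowers it and opens potassium channels, and the Gq/11 class activates phospholipase C and releases calcium. Only the Htr3 subunits form an ion channel. In the cerebellum, noradrenaline fibres from the locus coeruleus, serotonin fibres from the raphe and sparse cholinergic and histaminergic fibres tune the activity of Purkinje, granule and Golgi cells.

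Most receptor mRNAs were present at a low level. Of the 37 genes, 21 reached 1 TPM or more in both libraries, where 60.9% of all protein-coding genes did. Each library alone gave 22. The median over the 37 receptors was 1.695 TPM (mean of the libraries), against 4.7675 TPM over all protein-coding genes. Hrh3 and Htr2c led the list and together made up 25.3% and 27.2% of the summed receptor TPM. Levels ran from these 2 genes down to Htr3b and Hrh4, for which no count was found in either library.

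**Figure D1:**
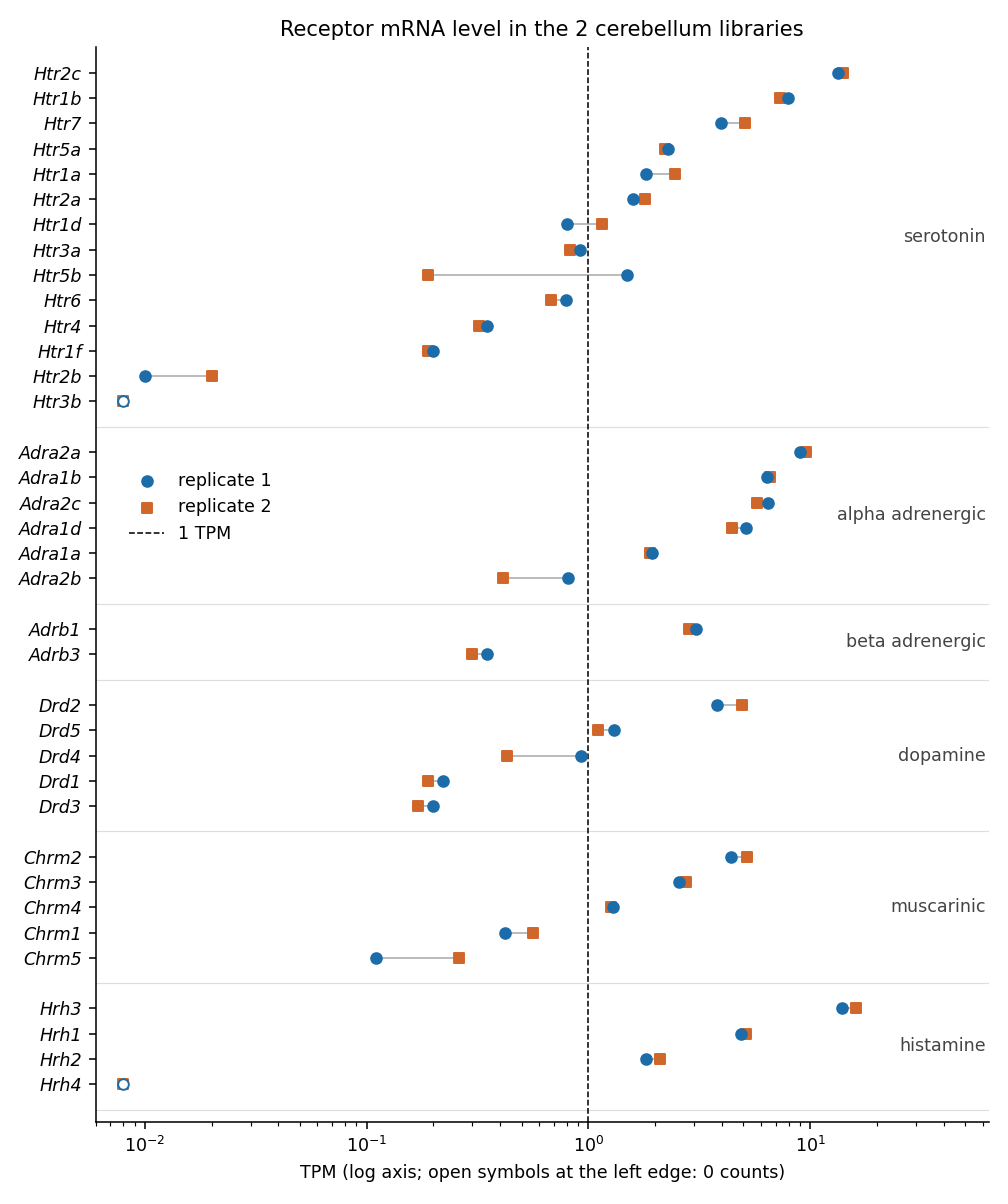
TPM of 36 receptor genes on a log axis, grouped by family, with replicate 1 as circles, replicate 2 as squares and a dashed line at 1 TPM; open symbols mark 0 counts. Hrh3 and Htr2c lie farthest to the right in both libraries, and the widest gap between the libraries is that of Htr5b, at 1.49 and 0.19 TPM.

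Among the serotonin receptors, Htr2c stood first. It encodes the 5-HT2C receptor, a Gq/11-coupled receptor known for its RNA editing and for its abundance in choroid plexus, and lies at chrX:146962513-147197277 on the plus strand (mm10). Its level was 13.30 TPM in replicate 1 and 14.01 TPM in replicate 2 (mean 13.66 ± 0.502 SD, n = 2), from 3134 and 3538 counts. The libraries lay close together, and no other serotonin receptor overlapped them. The messenger exists in a full-length form and in a form whose exon 5 ends early, and the stretch that decides between them holds the edited codons. That stretch is exon 5 of Htr2c-201 from chrX:147169676-147169770 (mm10, plus strand), 95 bases in the coding sequence, shown in capitals with 15 spliced bases on each side.

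Htr2c: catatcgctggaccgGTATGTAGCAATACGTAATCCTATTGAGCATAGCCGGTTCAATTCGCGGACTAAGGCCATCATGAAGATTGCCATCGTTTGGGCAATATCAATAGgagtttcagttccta

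Reads over splice junctions told the forms apart. The deposited junction table, on the mm9 assembly, counts reads for replicates numbered 1 and 2 without naming a library. The junction that keeps the 95 bases had 114 and 137 reads, and the one that leaves them out had 35 and 30. The short form thus took 20.6% of 316 reads (95% Wilson interval 16.5% to 25.4%), with 23.5% in replicate 1 and 18.0% in replicate 2, and the intervals of the replicates overlapped. Since 95 is not a multiple of 3, the short form changes the reading frame. In the authors' transcript quantification the short form, Htr2c-207, held 28.95% and 21.34% of the gene's TPM and the full-length Htr2c-201 held 68.18% and 75.29%.

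Htr1b, a Gi/o-coupled autoreceptor that limits transmitter release from nerve endings, came next at 7.96 and 7.29 TPM (1209 and 1202 counts). Its libraries did not overlap those of Htr2c above or of Htr7 below. An antisense gene, D430036J16Rik, overlaps Htr1b and stood at 4.06 and 2.93 TPM. The libraries are labelled as strand-specific, but how the counting used strand is not given in the sources used here.

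Htr7, a Gs-coupled receptor, reached 3.95 and 5.06 TPM, with replicate 2 the higher by 1.34-fold on the CPM scale. Htr5a, a Gi/o-coupled receptor, was nearly equal in the libraries at 2.29 and 2.22 TPM. Htr1a, the Gi/o-coupled receptor that acts as the cell body autoreceptor of raphe neurons, was at 1.81 and 2.46 TPM, and its range enclosed that of Htr5a. Htr2a, the Gq/11-coupled target of classical hallucinogens, was at 1.59 and 1.80 TPM, below both values of Htr5a and of Htr1a.

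The remaining 8 serotonin receptors did not reach 1 TPM in both libraries. Htr1d, a Gi/o-coupled receptor of nerve terminals, straddled the threshold at 0.80 and 1.15 TPM (107 and 162 counts), and Htr3a, the subunit required for the 5-HT3 channel, lay just below it at 0.92 and 0.83 TPM. Drd5 and Chrm4 were the members just above it. Htr6, coupled to Gs, was at 0.79 and 0.68 TPM, and Htr4, also coupled to Gs, at 0.35 and 0.32 TPM. Htr1f, a Gi/o-coupled receptor, had 24 counts in each library. Htr2b, which lies on the opposite strand of the proteasome gene Psmd1 (53.38 and 53.42 TPM), had 1 and 2 counts. The second channel subunit, Htr3b, had none, which allows up to 0.0256 TPM in replicate 1 and 0.0242 TPM in replicate 2 for counting error alone, taking 3 counts as the limit.

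Htr3a showed a choice of splice acceptor in front of its last exon, in the stretch that encodes the loop inside the cell, where a long and a short form of the mouse receptor are known. The 18 bases concerned, chr9:48899991-48900008 (mm10, minus strand), are in capitals, and they are a multiple of 3, so both forms keep the frame.

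Htr3a: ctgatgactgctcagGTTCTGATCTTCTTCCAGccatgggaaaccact

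The junction without the 18 bases, which no transcript of the mm9 annotation has, carried 34 reads (8 and 26). The annotated junction with them carried 3 (0 and 3), that is 8.11% of 37 reads (95% Wilson interval 2.80% to 21.3%). In both numbered replicates the shorter exon had the more reads.

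Htr5b was the member that differed most between the libraries. The gene encodes the 5-HT5B receptor, which is functional in rodents and for which no G protein class was assigned here. It had 137 counts and 1.49 TPM in replicate 1 and 18 counts and 0.19 TPM in replicate 2. On the scaled CPM the fold was 7.0 in favour of replicate 1 (log2 ratio of replicate 2 over replicate 1, -2.81), and counting error alone gave an interval of 4.68 to 13.3. The deposited mm9 table gave Htr5b 0.178 RPKM in its replicate 1 and 0.0240 RPKM in its replicate 2, and its only annotated intron had 5 and 1 junction reads.

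The alpha adrenergic receptors, which answer noradrenaline and adrenaline, had 5 of 6 members at 1 TPM or more in both libraries. Adra2a, the main Gi/o-coupled autoreceptor of noradrenaline neurons and the target of clonidine, led them at 8.99 and 9.59 TPM (mean 9.29 ± 0.424 SD, n = 2). It lies at chr19:54044151-54048982 on the plus strand. Adra2c, a second Gi/o-coupled autoreceptor, was at 6.42 and 5.76 TPM, and the Gq/11-coupled Adra1b was at 6.35 and 6.59 TPM, so that these 2 genes overlapped each other and neither overlapped Adra2a. Adra1d was at 5.11 and 4.46 TPM and Adra1a at 1.93 and 1.90 TPM, both coupled to Gq/11 and known for the contraction of smooth muscle. Only Adra2b, the remaining Gi/o-coupled member, stayed below 1 TPM. It had 163 and 86 counts, 0.81 and 0.41 TPM, and was 1.89-fold higher in replicate 1 (counting interval 1.46 to 2.51).

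The beta adrenergic receptors couple to Gs. Adrb1, the main receptor of heart and forebrain, was at 3.06 and 2.83 TPM (372 and 363 counts), and its libraries lay close together. Adrb3, known from fat tissue, had 34 and 30 counts, or 0.35 and 0.30 TPM.

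Dopamine receptors were led by Drd2, the Gi/o-coupled D2 receptor and the target of antipsychotic drugs, at chr9:49340627-49408177 on the plus strand. Drd2 had 272 and 372 counts, or 3.8 and 4.93 TPM (mean 4.365 ± 0.799 SD, n = 2), with replicate 2 higher by 1.35-fold on the CPM scale. Drd5, coupled to Gs, was the other dopamine receptor at 1 TPM or more in both, at 1.31 and 1.11 TPM. Drd1, the Gs-coupled receptor that is abundant in striatum, had 38 and 35 counts (0.22 and 0.19 TPM), and Drd3 had 13 and 12 (0.20 and 0.17 TPM). Drd4, a Gi/o-coupled receptor, had 56 and 27 counts, or 0.93 and 0.43 TPM. It was 2.01-fold higher in replicate 1 (counting interval 1.30 to 3.44).

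The D2 receptor is made in a long and a short form that differ by 1 exon in the loop that binds the G protein. The mm10 annotation of the authors listed 1 transcript of Drd2, the long one, so its quantification could not tell the forms apart, while the junction reads could. Exon 6, chr9:49403194-49403280 (mm10, plus strand), has 87 bases, a multiple of 3, printed in capitals.

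Drd2: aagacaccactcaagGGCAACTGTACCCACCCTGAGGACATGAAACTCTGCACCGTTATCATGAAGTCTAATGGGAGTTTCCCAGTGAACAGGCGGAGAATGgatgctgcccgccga

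The junction into this exon had 35 and 46 reads, the junction out of it 17 and 11, and the junction that skips it 2 and 11. With the 2 inclusion junctions averaged, 80.7% of the messengers kept the exon, 92.9% in replicate 1 and 72.2% in replicate 2 of the junction table. The long form was thus the more frequent in both. Reckoned from the upstream junction alone the share was 86.2%, and from the downstream junction alone 68.3%, where replicate 2 had 11 of 22 reads with the exon. All splice choices described here for Drd2, Htr2c, Hrh3, Htr7 and Htr3a, with the shares taken from them, were chosen after the data were seen.

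**Figure D2:**
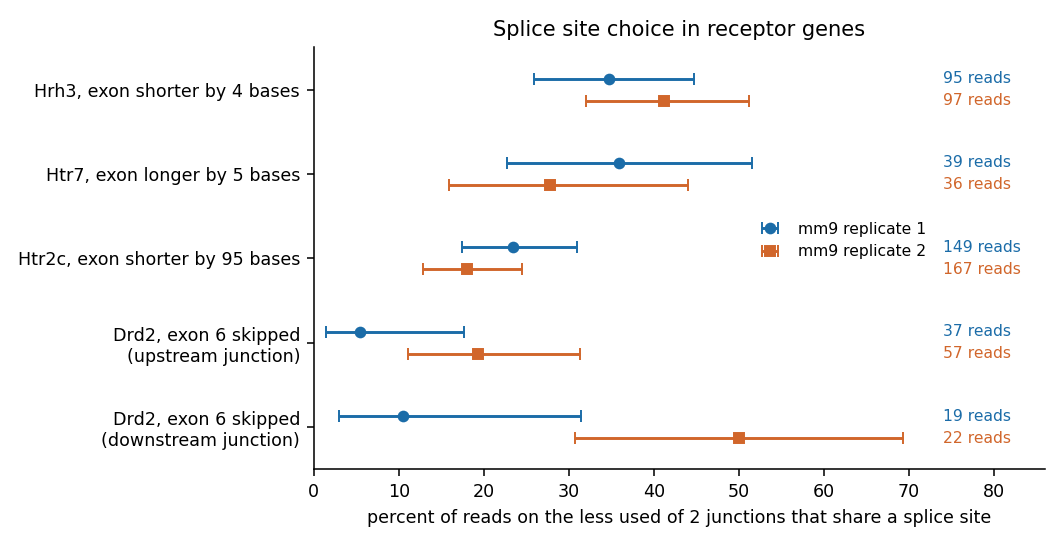
Percent of junction reads on the less used of 2 junctions that share a splice site, for each replicate number of the mm9 junction table, with 95% Wilson intervals and the reads behind each point at the right. The intervals of the replicates overlap for Hrh3, Htr7 and Htr2c, and for Drd2 by the upstream junction and, narrowly, by the downstream one.

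Muscarinic receptors, the slow receptors of acetylcholine, had 3 of 5 members at 1 TPM or more in both libraries. Chrm2, a Gi/o-coupled receptor at chr6:36388084-36528414 on the plus strand, led at 4.38 and 5.16 TPM. The non-coding gene 9330158H04Rik overlaps it on the other strand at 2.61 and 3.19 TPM. Chrm3, coupled to Gq/11, was at 2.56 and 2.74 TPM, and Chrm4, coupled to Gi/o, at 1.29 and 1.27 TPM, and the ranges of these 3 genes did not overlap. By counts Chrm3 was further apart than by TPM, with 407 and 554, or 1.35-fold higher in replicate 2 on the CPM scale. Chrm1, the Gq/11-coupled receptor that dominates in cortex and hippocampus, had 101 and 137 counts, 0.42 and 0.56 TPM. Chrm5, also coupled to Gq/11, was the lowest at 0.11 and 0.26 TPM. It had 8 and 20 counts and was 2.19-fold higher in replicate 2, the only member 2-fold higher there.

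Histamine receptors held the highest member of all. Hrh3, the Gi/o-coupled autoreceptor and heteroreceptor that limits release of histamine and other transmitters, lies at chr2:180099465-180104488 on the minus strand. It was at 13.85 TPM in replicate 1 and 16.08 TPM in replicate 2 (mean 14.97 ± 1.58 SD, n = 2), from 1683 and 2016 counts, above 65.7% of protein-coding genes. Its lower library lay within the range of Htr2c, so the order of the first 2 receptors was not settled by these libraries. Hrh1, the Gq/11-coupled receptor blocked by sedating antihistamines, was at 4.85 and 5.12 TPM and Hrh2, the Gs-coupled receptor of gastric acid secretion, at 1.81 and 2.10 TPM. Hrh4, known from blood and immune cells, had no count, which by the same limit of 3 counts allows up to 0.0423 TPM in replicate 1 and 0.0401 TPM in replicate 2.

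A 4-base difference at the end of exon 1 separated 2 forms of Hrh3. The bases, chr2:180103902-180103905 (mm10, minus strand), are in capitals. They belong to Hrh3-201 and are left out of Hrh3-207, which GENCODE marks for nonsense-mediated decay.

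Hrh3: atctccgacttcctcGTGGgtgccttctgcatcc

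The junction after the 4 bases had 62 and 57 reads and the junction before them 33 and 40. The shortened exon thus took 38.02% of 192 reads (95% Wilson interval 31.5% to 45.1%), 34.7% in replicate 1 and 41.2% in replicate 2 of the junction table. In the transcript quantification Hrh3-207 held only 7.47% and 9.11% of the gene's TPM, and Hrh3-201 held 84.56% and 80.90%. The junction reads and the transcript estimates of Hrh3 therefore differed by more than the replicates did on either measure, and the cause was not tested.

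The order of the levels was only partly resolved. Among the 36 pairs of neighbours in the order of mean TPM, 12 had values in the 2 libraries that did not overlap, 8 of them among the 20 pairs of the 21 higher members. Breaks without overlap lay below Htr2c, Adra2a, Htr1b, Adra2c, Drd2, Chrm3, Adra1a and Htr2a. Between Hrh1 and Drd2 the 5 genes Hrh1, Adra1d, Chrm2, Htr7 and Drd2 each overlapped the next.

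Summed over a family, serotonin receptors had the most mRNA at 35.46 and 36.22 TPM, followed by alpha adrenergic receptors at 29.61 and 28.71 TPM and histamine receptors at 20.51 and 23.30 TPM. These 3 families did not overlap. Muscarinic receptors summed to 8.76 and 9.99 TPM, dopamine receptors to 6.46 and 6.83 TPM and beta adrenergic receptors to 6.59 and 5.71 TPM, and the last 2 overlapped. A leading member carried much of each sum: Drd2 58.8% and 72.2% of the dopamine receptors, Hrh3 67.5% and 69.0% of the histamine receptors, and Htr2c 37.5% and 38.7% of the serotonin receptors.

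By signalling class, the 15 Gi/o-coupled receptors summed to 53.73 and 57.11 TPM, which was 50.03% and 51.6% of all receptor TPM. The 10 Gq/11-coupled receptors held 33.7% and 33.8% and the 9 Gs-coupled receptors 14.0% and 13.7%. Of these classes 9, 7 and 5 members reached 1 TPM or more in both libraries. The ion channel subunits Htr3a and Htr3b summed to 0.92 and 0.83 TPM, all of it from Htr3a.

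**Figure D3:**
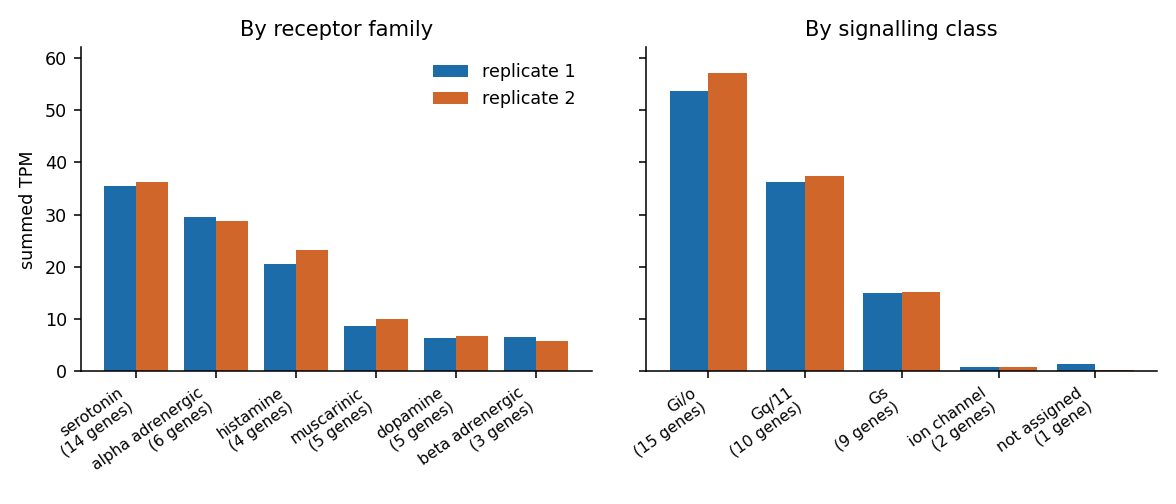
Summed TPM of the receptor families (left) and signalling classes (right) as bars from 0, with replicate 1 and replicate 2 side by side and the number of genes under each pair. The Gi/o class is the highest in both libraries at 53.73 and 57.11 TPM, and Htr5b, not assigned to a class, is the pair whose bars differ most in proportion.

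The genes that carry the signal onward were far more abundant than the receptors. Of 32 transducer genes listed, 28 were at 1 TPM or more in both libraries, with a median of 23.19 TPM. The alpha subunits of Gs were led by Gnas at 1807.72 and 1852.22 TPM, ahead of Gnal, the olfactory and striatal form, at 50.39 and 47.92 TPM. Gnao1 (227.98 and 208.06 TPM) and Gnai2 (180.52 and 191.14 TPM) led the Gi/o subunits and Gnai3 was the lowest at 17.94 and 16.25 TPM. For Gq/11, Gna11 (69.06 and 67.94 TPM) and Gnaq (37.45 and 35.62 TPM) were present, while Gna14 and Gna15, known from epithelial and blood cells, stayed below 1 TPM.

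Effector enzymes followed the same division into a few high and some low members. Adcy1, the calmodulin-stimulated adenylyl cyclase, was at 213.78 and 163.35 TPM, ahead of Adcy5 at 23.13 and 22.34 TPM, and Adcy10, the soluble form, had 18 and 11 counts. Plcb4, a phospholipase C known from Purkinje cells, was at 125.19 and 105.17 TPM, Plcb3 at 25.84 and 23.83 TPM, and Plcb2 below 1 TPM. The kinase Grk2 (157.01 and 143.75 TPM) and the arrestin Arrb1 (75.91 and 70.41 TPM), which switch receptors off, led their list, and Grk4 was its lowest at 3.04 and 2.95 TPM.

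Genes that make, carry and clear the transmitters were present too, 13 of 14 at 1 TPM or more in both libraries, mostly at levels like those of the receptors. Th, the rate-limiting enzyme of catecholamine synthesis, was at 8.90 and 6.96 TPM, Tph2, that of neuronal serotonin synthesis, at 4.50 and 4.26 TPM, and Hdc, the histamine-forming enzyme, at 4.59 and 4.17 TPM. Chat, which makes acetylcholine, was at 3.75 and 4.69 TPM, while Ache, which breaks it down, stood far above the rest at 101.49 and 104.51 TPM. The dopamine transporter Slc6a3 was the exception with 3 and 6 counts, while the noradrenaline transporter Slc6a2 was at 1.29 and 1.87 TPM.

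Between the libraries, 3 of the 34 receptors with at least 10 counts were 2-fold or more apart: Htr5b and Drd4, higher in replicate 1, and Chrm5, higher in replicate 2. Over all protein-coding genes with at least 10 counts the share was 2.36%, and it was 10.4% among those with 10 or more and under 300 counts, where all 3 of these receptors lie together with 11 others. With a threshold of 1.5-fold, Adra2b joined them, where 6.68% of protein-coding genes passed. Only Htr5b remained when at least 100 counts were required, where 0.637% of all genes were 2-fold apart. Among receptors with at least 100 counts the median absolute log2 ratio was 0.21, against 0.09 over all genes with that many counts, which as a set have higher counts. With the sign kept, the median was 0.105 for these receptors, toward replicate 2, against 0.0015 over all those genes.

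**Figure D4:**
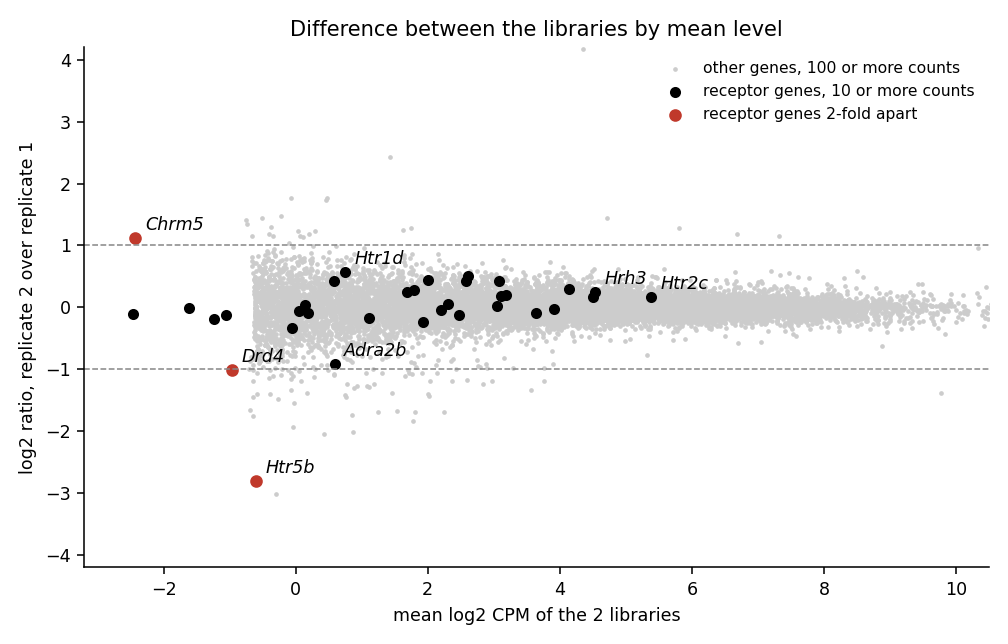
Log2 ratio of replicate 2 over replicate 1 against mean log2 CPM for genes with at least 100 counts (grey) and for the 34 receptors with at least 10 counts (black, or red where 2-fold apart); dashed lines mark 2-fold and 49 genes lie beyond the axes. Htr5b lies at -2.81, Drd4 at -1.01 and Chrm5 at 1.13.

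Markers of several cell types also differed between the libraries. All 6 choroid plexus genes were higher in replicate 1, with a summed level of 2129.97 against 783.66 TPM, most of it Ttr (2085.86 and 763.18 TPM). Folr1 came next and Prlr was the lowest. Htr2c, which choroid plexus epithelium is known to express, was at 13.30 and 14.01 TPM, and the share of its mRNA from that tissue was not tested. The 5 meninges genes (Igf2 and Dcn the highest, Slc22a6 the lowest) were all higher in replicate 1, 90.10 against 61.26 TPM, and the 3 blood genes (Hbb-bs, Hba-a1 and Hbb-bt) all higher in replicate 2, 1002.60 against 459.32 TPM.

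Lists of cerebellar cells moved less. The 4 granule neuron genes (Cbln3 and Gabra6 the highest, Neurod1 the lowest) summed to 1180.84 and 932.80 TPM, the 4 Purkinje genes (Pcp2, Car8, and Ppp1r17 the lowest) to 2220.64 and 1846.17 TPM, and the 5 Bergmann glia genes (Slc1a3, Hopx, and Wif1 the lowest) to 716.37 and 583.58 TPM, with every gene of these lists higher in replicate 1. Mural genes (Rgs5 and Acta2 the highest, Kcnj8 the lowest) were higher in replicate 2 in 4 of 5, 86.30 against 75.33 TPM. The unipolar brush cell genes Eomes and Lmx1a summed to 5.32 and 4.53 TPM.

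Lists of other brain regions differed less than the granule neuron, Purkinje and Bergmann glia lists. The 6 striatum and forebrain genes (Penk and Ppp1r1b the highest) summed to 252.27 and 217.83 TPM, with 5 of 6 higher in replicate 1. The 6 brainstem monoamine genes (Th and Ddc the highest, Slc6a2 the lowest) summed to 28.91 and 28.39 TPM. Mast cell genes other than Kit, which cerebellar neurons also express, had 0 to 4 counts in a library (Cpa3 and Tpsb2). The part of any of these lists, or of the sex difference of the libraries, in the values of Htr5b, Drd4, Adra2b, Chrm5 or Htr2c was not tested.

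**Figure D5:**
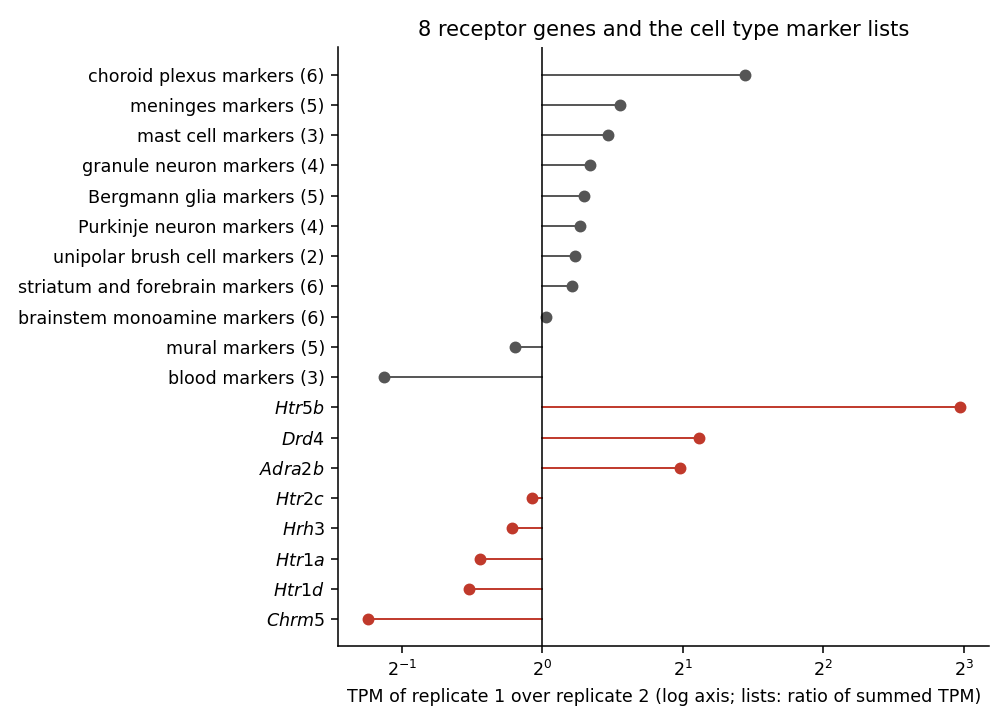
TPM of replicate 1 over replicate 2 on a log axis for 8 receptor genes chosen after their values were seen (red) and for the summed TPM of 11 cell type marker lists (grey, number of genes in brackets). Choroid plexus markers lie at 2.72 and blood markers at 0.458, while Htr2c lies close to 1 and Htr5b is the highest of all points.

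The gene structure of the receptors was simple in many cases. In 17 of 37 receptors (45.9%) the coding sequence of at least 1 protein-coding transcript lay in 1 exon, against 21.2% of 21428 protein-coding genes. Incomplete transcripts were not left out of either share. The 17 receptors were all 5 muscarinic receptors, 4 of 14 serotonin, 3 of 6 alpha adrenergic, 2 of 3 beta adrenergic, 2 of 5 dopamine and 1 of 4 histamine receptors. In the mm9 annotation 27 receptors had an intron, and reads crossed 83 of their 127 introns in 24 of them, 3110 reads in all. Htr2c had 1151 of these reads, Drd2 425 and Hrh3 399.

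Where transcripts could be compared, 13 receptors had at least 100 counts and 2 or more annotated transcripts. The same transcript led in both libraries in all 13, where this held for 92.7% of all genes so measured. In 11 of the 13 receptors the leading transcript held at least 50% of the gene in both libraries, where 70.6% of all genes so measured did. The exceptions were Hrh1 and Htr7. For Hrh1, Hrh1-203 held 44.87% and 51.13% and Hrh1-205 held 44.29% and 42.55%. For Htr7, Htr7-204, marked for nonsense-mediated decay, led with 34.65% and 35.50%, ahead of Htr7-205 (26.89% and 27.09%) and Htr7-202 (26.61% and 25.93%).

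Junction reads bore on the forms of Htr7 too. Its protein-coding forms differ in the tail of the receptor inside the cell. A 5-base shift of a donor site divided 75 reads into 51 (25 and 26) and 24 (14 and 10), the latter for the longer exon of Htr7-205. A 58-base exon found in Htr7-204, where it is exon 2 of 4, lies upstream of the stretch for that tail. It was entered by 26 reads and left by 19, against 37 that skipped it. This gave an inclusion of 37.8% (36.0% in replicate 1 and 39.1% in replicate 2 of the junction table). The extra exon of Htr7-201 had 11 reads on one side, all in replicate 2 of the junction table, and 3 (1 and 2) on the other.

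Some transcript shares moved between the libraries. Chrm3-202 held 58.06% of Chrm3 in replicate 1 and 81.94% in replicate 2, and Adra2b-202 held 100% and 52.36% of Adra2b, while Htr1b-202 was steady at 51.98% and 54.24%. Adra1b-202 and Adra1b-204 were given equal counts in each library (132.33 in replicate 1 and 178.52 in replicate 2), so the quantification did not separate them.

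The mm9 quantification gave nearly the same order on a lower scale. All 37 receptors were in it, and its 10 highest were the 10 highest by TPM. Hrh3 had 1.76 and 2.12 RPKM, Htr2c 1.64 and 1.88 RPKM and Adra2a 1.15 and 1.33 RPKM, the only 3 receptors at 1 RPKM or more in both, where 44.6% of protein-coding genes were. The mm10 FPKM of the 21 higher receptors was 4.34 to 5.85 times their mm9 RPKM (median 5.04), and over protein-coding genes at 1 TPM or more the median was 5.55. Chrm1 was the higher in replicate 2 by mm10 counts (101 and 137) but in replicate 1 of the mm9 table (0.0838 and 0.0574 RPKM).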

How the data were processed

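Paired-end reads of 101 bases were made from strand-specific libraries of polyadenylated RNA over 200 nucleotides, per the labels. The authors deposited, against mm10, an expected count, a TPM and an FPKM per gene and transcript, a posterior mean TPM and each transcript's percent of its gene. Per the file headers, the mm9 tables hold RPKM per Ensembl gene and deposited junction read counts for replicates numbered 1 and 2. Which aligner was used is not given in the sources used here.

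Annotation was GENCODE M21, joined by identifier; 42462 of 43346 genes (98.0%) matched. Genes took 96.0% and 95.3% of counts; spike-in, phiX and tRNA entries stayed out of library sizes. Ratios between the libraries are of log2 CPM (edgeR 4.0.16, R 4.3.3, TMM, prior count 2, rounded counts); a receptor needed 10 counts and other genes 100. On simulated data for 15543 genes with at least 100 counts, at a fixed variation between libraries, 100% of 4-fold changes and 0.0196% of unchanged genes passed 2-fold. In the libraries themselves 0.637% of genes with that many counts passed. The simulation thus gives no error rate for these libraries, nor for receptors under 100 counts. Fold intervals are exact conditional ones on the counts; intervals and limits cover counting error only. Full values were given for the highest 2 of each family, those at 1 TPM or more and those 1.5-fold apart, and of transducer and marker classes the highest 2 and the lowest. A few of these genes go unreported by name, while all sums and counts include them. The members and lists were chosen with earlier results of these data known. Sequences were read from GENCODE M21 transcripts. A check of promoters was left out because fewer than 80% of the receptors had one.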

Additional observations from a re-analysis of the deposited data

Results flagged for a closer look

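In the junction table, 6 junctions in 5 receptor genes carried 10 or more reads although no transcript of the mm9 annotation has them, where a count of 0 allows 3. They were flagged as signal outside the annotated introns and are given as values, without an explanation. A Drd2 junction with 110 reads that lies 2 bases from an annotated intron at both ends is not among them.

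Adra2a, whose annotation has no intron, had 2 such junctions inside its exon that share an end: 36 reads (14 and 22 in the numbered replicates) over 129 bases at chr19:54120268-54120396 and 12 reads (3 and 9) over 92 bases at chr19:54120305-54120396 (mm9, plus strand). In Htr3a, the acceptor that leaves out 18 bases had 34 reads (8 and 26). Hrh1 had 24 reads (13 and 11) on a junction that joins a donor and an acceptor each known from other transcripts, chr6:114353892-114358767. Htr7 had 17 reads (7 and 10) on a junction of 96306 bases that skips the exon between 2 annotated sites. Hrh2 had 14 reads (8 and 6) from an annotated donor to an acceptor outside the annotated gene, against 4 on the annotated intron from the same donor.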

How the results depend on the processing

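Of 256 recomputed values, 204 stayed within the spread or within 1.5 times. A reversal could be called only for the 25 recomputed log2 ratios, and none of these reversed. With 2 libraries, a level or sum from 1 library alone always lies within 1 SD of the mean. Those values could not move and say nothing about stability. The number of receptors at 1 TPM or more in both libraries was 21; it was 24 at 0.5 TPM, 15 at 2 TPM and 19 by FPKM, and 3 when the mm9 RPKM replaced TPM. Rescaling TPM to genes without spike-ins, phiX, tRNA and mitochondrial genes raised every sum by its construction: serotonin 49.2, alpha adrenergic 40.0, beta adrenergic 8.43, dopamine 9.13, muscarinic 12.9 and histamine 30.1 TPM, Gi/o 76.1, Gq/11 50.6, Gs 20.7 and ion channel 1.20 TPM, all receptors 149.8 TPM, and the median receptor 2.33 TPM. The 3 receptors 2-fold apart fell to 1, Htr5b, with a minimum of 100 counts (28 receptors instead of 34) and with TPM plus 1 or plus 0.1, and stayed 3 under the other scalings. The log2 ratio of Htr5b ran from -1.07 (TPM plus 1) to -2.90. Of the 37 single levels, 33 stayed within 1 SD under the posterior mean (Chrm3, Htr2b, Htr3b and Hrh4 did not) and 7 under rescaling.

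No paired analysis was possible because the libraries form 1 group. Leaving out either library kept the counts of receptors at 1 TPM (22 and 22) and of leading transcripts (12 and 11) within 1.5 times. Depth limits the 9 receptors with under 100 counts, and 37 to 316 junction reads per choice limit the splicing shares.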

Other observations

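The nicotinic receptors, the fast ion channels of acetylcholine, were listed beside the muscarinic ones. Of 13 subunit genes, 6 were at 1 TPM or more in both libraries, and the median was 0.365 TPM. Chrnb2, the beta subunit of the main brain receptor, was at 38.56 and 33.77 TPM, above every aminergic and muscarinic receptor gene. Its usual partner Chrna4 was at 6.45 and 8.65 TPM and Chrna7, which forms channels by itself, at 4.58 and 4.76 TPM. Chrna3 and Chrnb4, the ganglionic pair, were at 1.99 and 2.02 TPM and at 1.95 and 1.68 TPM. Chrna5 had 16 and 2 counts and Chrnb3 had 38 and 13, both higher in replicate 1. By TPM, 7 of the 13 subunit genes were higher in replicate 1 and 6 in replicate 2. The muscle subunit Chrna1 had 4 and 13 counts.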
